A study of Pseudotsuga menziesii with 75 samples.

Results

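The transcripts described here encode enzymes that take starch apart in the chloroplast and pass its sugars on to the cytosol. They were measured in needles of Douglas-fir (Pseudotsuga menziesii), a conifer of western North America, by RNA-seq. Members were the contigs of a needle transcriptome assembly whose best match in Arabidopsis was 1 of 10 loci, namely the beta-amylases BAM3 and BAM1, SEX1, PWD, SEX4, ISA3, AMY3, DPE1, MEX1 and DPE2. This gave 55 of the 59189 contigs in the count matrix, and 10 of the 10739 Arabidopsis loci it names. Each locus had 1 to 11 contigs, and the contig with the highest mean count stands for the locus below as its main contig. Near-identical contigs of a locus may share reads that the authors' counting divided among them, which makes the level of any 1 such contig uncertain. Contig lengths were not used here, so levels are not compared between genes.

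In Arabidopsis, leaves store starch in the chloroplast by day and degrade it at night. Kinases put phosphate groups on the granule surface, a phosphatase takes them off again, and amylases and debranching enzymes cut the loosened chains. The maltose this yields leaves the chloroplast through a transporter and is converted further in the cytosol. Evergreen conifer needles fill with starch in spring, before and during bud break, and draw it down over summer and autumn. The roles given for single genes below are those known in Arabidopsis.

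The study sampled 25 field-grown adult trees on 2 sites in south-west Germany, the mountain site Schluchsee and the lowland site Wiesloch. Trees came from 2 provenances (places of seed origin) in British Columbia, Cameron Lake near the coast and Salmon Arm in the interior. Needles formed in the previous year were taken from the sun-exposed upper crown in May, June, July and September 2010, which gave 75 libraries in 16 groups of 4 to 5. In month order, Schluchsee had 10, 9, 10 and 8 libraries, and Wiesloch had 10, 8, 10 and 10. Cameron Lake was represented by 7 trees at Schluchsee and 5 at Wiesloch, and Salmon Arm by 6 trees at Schluchsee and 7 at Wiesloch. The trees carried no treatment. Each site was visited on 1 day per month (Schluchsee on 27 May, 30 June, 28 July and 15 September, Wiesloch on 12 May, 16 June, 14 July and 8 September), so a difference between months or sites cannot be told apart from a difference between those days. The labels name noon as the sampling time. Where a clock time was recorded (62 libraries), it lay between 12.83 and 15.72 hours.

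Libraries held 18.54 to 47.51 M counts (median 34.05 M). Values are given as CPM, counts scaled to the library's total by edgeR's TMM method. Of the markers of green needle tissue, RBCS1A ran from 1328 to 4386 CPM, RCA from 2048 to 5908 CPM and LHCB2.1 from 294 to 2163 CPM, while the contig matched to GAPA stayed between 0.038 and 1.42 CPM. For other cell types, the summed level of 4 xylem genes ran from 16.4 to 88.7 CPM. That of 2 of 4 genes of dividing cells ran from 10.2 to 45.7 CPM, and that of the 1 measured phloem gene of 3 from 0.296 to 12.9 CPM. As levels are not compared between genes, these values do not give shares of cell types. The guard cell gene SLAC1 stood apart in 1 group. The sum of the 2 measured guard cell genes of 4 was 30.9 to 97.0 CPM at Schluchsee in July and 8.09 to 17.5 CPM at Wiesloch in July. SLAC1 made up most of this sum. July medians of SLAC1 were 74.0 CPM at Schluchsee and 10.0 CPM at Wiesloch, and those of the other gene, HT1, were 0.869 and 0.74 CPM. In whole needles, fewer cells of a type and less RNA per cell cannot be told apart. All adjusted p-values, unless another tool is named, come from edgeR's quasi-likelihood test, adjusted by Benjamini-Hochberg across every contig of the fit, with a threshold of 0.05. Fold changes are log2 differences with their standard errors (SE).

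Of the 10 main contigs, that of BAM3 had the largest differences. In July its median was 14.2 CPM in Schluchsee needles and 126 CPM in Wiesloch needles. It rose in June at both sites and rose again in July at Wiesloch. Among these 10 contigs, 5 had a seasonal course that differed between the sites (BAM3, PWD, SEX4, AMY3 and DPE2), against a background of 34.9% of all contigs. A course that differed between the provenances was called for 0 of the 10 by edgeR (0 at an unadjusted p under 0.05) and 0 by DESeq2, against backgrounds of 0.00338% for edgeR (2 contigs in all) and 0.0141% for DESeq2 (8 contigs). Of the 55 contigs, 0 were called and 1 had an unadjusted p under 0.05.

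In June against May, 5 of 10 main contigs passed at Schluchsee, where 14.1% of all contigs passed. Of these, 2 were higher and 3 lower in June, against 7.11% higher and 6.95% lower over all contigs. At Wiesloch 1 passed (BAM3, higher), where 7.77% of all contigs passed, 3.95% higher and 3.82% lower. In July against June, 3 passed at Schluchsee (2 higher, 1 lower), where 17.0% of all contigs passed, 8.88% higher and 8.16% lower. At Wiesloch 3 passed (2 higher, 1 lower), where 25.1% passed, 12.3% higher and 12.8% lower. In September against July, 1 passed at Schluchsee (higher), where 7.67% passed, 3.76% higher and 3.91% lower. At Wiesloch 7 passed (4 higher, 3 lower), where 42.0% passed, 20.2% higher and 21.7% lower. The whole matrix also had its most calls in that last step. The members' median log2 difference in that step was -0.08 over the 10 main contigs and 0.14 over the 55 contigs, against -0.02 over all contigs. Between the sites in May, 2.97% of all contigs passed with edgeR, 1.09% higher and 1.89% lower at Schluchsee. DESeq2 called 2 main contigs in May and 7.39% of all contigs. For May edgeR called 0 main contigs, and 4 had an unadjusted p under 0.05, against 11025 of the 56074 contigs tested. For June it called 1 (lower), where 3.14% passed, 1.57% in each direction. For July it called 6 (2 higher and 4 lower), where 41.8% passed, 21.7% higher and 20.1% lower. For September it called 1 (lower), where 8.29% passed, 3.95% higher and 4.34% lower. Month comparisons treat the libraries of a tree as independent. With the tree as a replicate block, more contigs of the matrix passed in each month step. Main contigs called between June and May were then 5 at Schluchsee (26.9% of all contigs) and 2 at Wiesloch (17.2%). Between July and June they were 5 at Schluchsee (23.7%) and 5 at Wiesloch (35.8%), and between September and July 4 at Schluchsee (13.2%) and 9 at Wiesloch (51.8%). The month by site test with the block called 7, against 46.5% of all contigs.

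**Figure D1:**
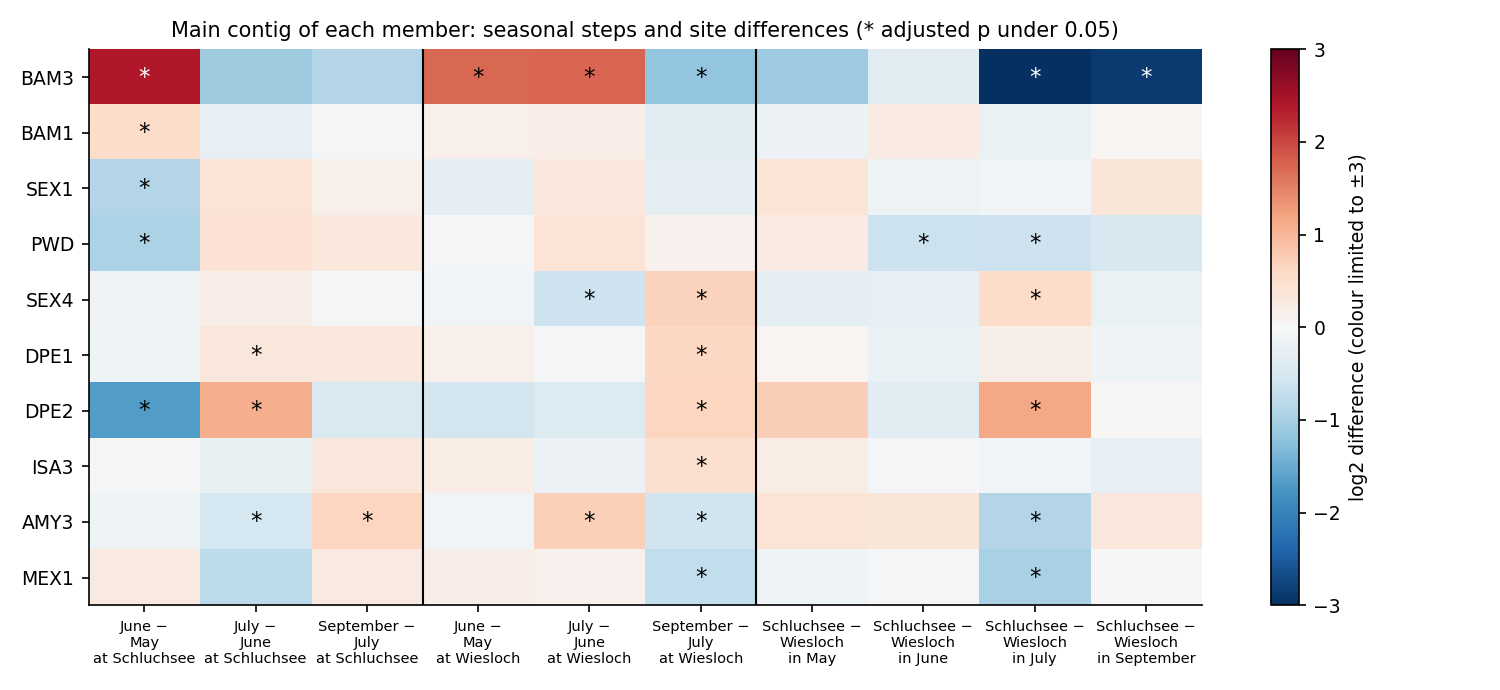
Log2 differences of the main contig of each of the 10 loci (rows) in the steps between successive months at Schluchsee and at Wiesloch and between the sites in each month (columns). Red is higher and blue lower in the month or site named first, and an asterisk marks an adjusted p under 0.05. BAM3 has the strongest colours, and its Schluchsee minus Wiesloch differences in July (-3.18) and September (-2.88) are the darkest blue.

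BAM3 (AT4G17090) is the chloroplast beta-amylase that makes most of the maltose released from leaf starch at night. Its main contig, isotig38429, held 43.9% of the counts of the locus. At Schluchsee it had a lowest, median and highest value of 1.92, 4.88 and 10.8 CPM in May, 5.28, 38.5 and 68.7 CPM in June, 4.07, 14.2 and 21.3 CPM in July, and 3.39, 6.70 and 13.3 CPM in September. At Wiesloch it had 3.19, 9.57 and 30.2 CPM in May, 15.6, 40.4 and 65.7 CPM in June, 52.3, 126 and 208 CPM in July, and 10.5, 30.0 and 189 CPM in September. The 2 sites overlapped fully in June and not at all in July, when the lowest Wiesloch library lay above every Schluchsee library.

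The rise in June was 2.41 (SE 0.44, adjusted p = 4.6e-05) at Schluchsee and 1.73 (SE 0.44, adjusted p = 0.0071) at Wiesloch. It was seen in 9 of 9 trees at Schluchsee and 7 of 7 at Wiesloch that were sampled in both months. Its size varied between trees. At Schluchsee the Cameron Lake trees had 18.6 to 68.7 CPM in June and 2.97 to 10.8 CPM in May. The Salmon Arm trees there had 5.28 to 8.41 CPM in June in 3 of 4 libraries and 58.4 CPM in tree 13, against 1.92 to 8.91 CPM in May. The month by provenance test of BAM3 gave an adjusted p of 1. It takes both sites and all months together, so it does not address June at Schluchsee alone, which was not tested. Without Salmon Arm tree 13 the June rise at Schluchsee was 1.74, the lowest value with a tree left out. With the counts of the locus summed it was 0.93 at Schluchsee (adjusted p = 0.013) and 0.85 at Wiesloch (adjusted p = 0.044). In July BAM3 was higher again at Wiesloch (1.74, SE 0.45, adjusted p = 0.0025, higher than in June in 7 of 7 trees). The July difference from June at Schluchsee was -1.06 (SE 0.42, adjusted p = 0.073), with 5 of 6 trees lower. DESeq2 gave it an adjusted p of 0.049. In September BAM3 fell at Wiesloch (-1.19, SE 0.41, adjusted p = 0.016), where 8 of 8 trees were lower than in July, and the difference at Schluchsee was -0.87 (SE 0.44, adjusted p = 0.26; -1.06 and adjusted p = 0.035 with the tree as a block), with 6 of 7 trees lower.

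Between the sites, BAM3 was lower at Schluchsee by 3.18 on the log2 scale in July (-3.18, SE 0.27, adjusted p = 2.9e-08) and by 2.88 in September (-2.88, SE 0.59, adjusted p = 0.0062), while May (-1.08, adjusted p = 0.11) and June (-0.35, adjusted p = 0.74) did not pass. The July difference ran from -3.30 to -3.07 with any tree left out. In July the Cameron Lake trees had 11.6 to 21.3 CPM at Schluchsee and 52.3 to 156 CPM at Wiesloch, and the Salmon Arm trees had 4.07 to 15.3 CPM at Schluchsee and 76.2 to 208 CPM at Wiesloch. The guard cell sum, mostly SLAC1, was higher at Schluchsee in the same month (above). The summed markers of dividing cells, mostly AUR1, were 12.6 to 31.0 CPM at Schluchsee and 31.0 to 45.7 CPM at Wiesloch. The part of both sums in the July site differences was not tested.

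The September fall of BAM3 at Wiesloch ran from -1.82 to -1.03 with any tree left out, and was -1.82 without Salmon Arm tree 13. It lost its call without Cameron Lake tree 9 (adjusted p = 0.055), Salmon Arm tree 9 (adjusted p = 0.053) or Salmon Arm tree 12 (adjusted p = 0.058). With a covariate for clock time, which left the 62 timed libraries, the rise in June at Wiesloch was 1.20 (adjusted p = 0.43) and the rise in July there 2.24 (adjusted p = 0.078). Median clock times in June were 13.35 hours at Schluchsee and 14.7 hours at Wiesloch, where only 3 of 8 June libraries were timed.

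**Figure D2:**
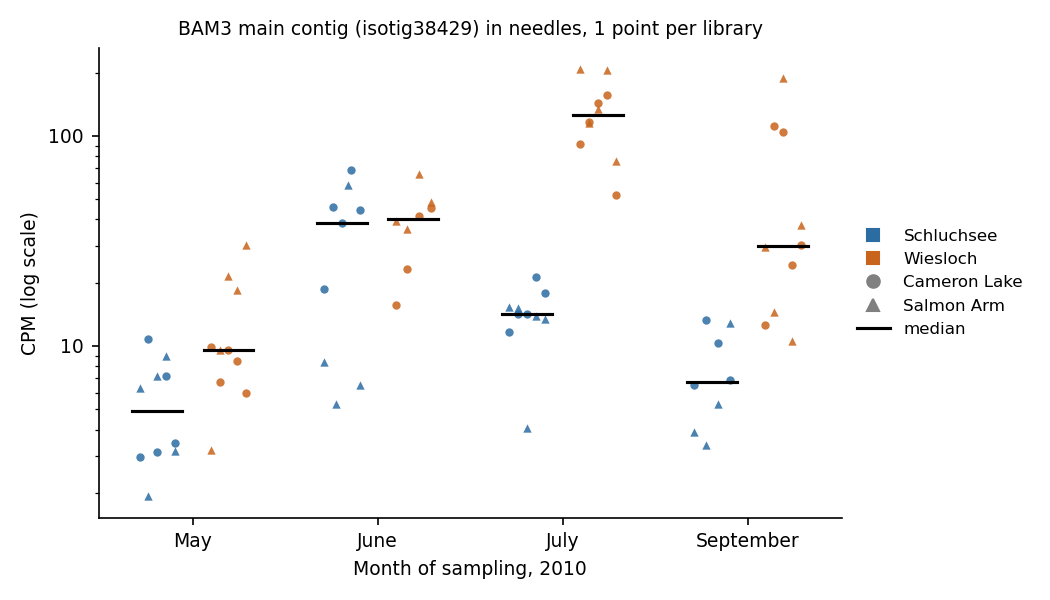
CPM (log axis) of the BAM3 main contig in each of the 75 libraries by month, with Schluchsee in blue and Wiesloch in orange, circles for Cameron Lake, triangles for Salmon Arm and a black bar at the median. In July the Schluchsee libraries lie between 4.07 and 21.3 CPM and the Wiesloch libraries between 52.3 and 208 CPM.

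The 11 contigs matched to the BAM3 locus did not behave as 1 gene. Over the 75 libraries, log2 CPM of isotig38429 correlated with that of GAEK01006980.1 (17.4% of the counts of the locus, named after its values were seen) at r = 0.97, and both were high at Wiesloch in July. A second set of GAEK01006981.1, GAEK01025828.1 and isotig66158 correlated among themselves at r = 0.90 to 0.97 and with isotig38429 at r = -0.04 to 0.08. These points share libraries and trees, so the coefficients are descriptive.

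This second set was high in September at Wiesloch, when isotig38429 had fallen. GAEK01025828.1 had 10.9, 32.3 and 41.1 CPM (lowest, median, highest) there in September and 1.18, 2.74 and 8.19 CPM in July, with no overlap. The differences were 3.06 (SE 0.31, adjusted p = 1.1e-12) for GAEK01025828.1, 2.61 (SE 0.28, adjusted p = 1.4e-11) for GAEK01006981.1 and 3.28 (SE 0.42, adjusted p = 1.9e-09) for isotig66158. At Schluchsee GAEK01025828.1 had 6.18, 8.61 and 15.8 CPM in September and 3.90, 6.38 and 12.4 CPM in July, so the September values of the sites overlapped in part (Schluchsee minus Wiesloch -1.49, SE 0.26, adjusted p = 0.0018). In June the 3 contigs fell at Schluchsee, where isotig38429 rose. The differences were -0.93 for GAEK01025828.1 (adjusted p = 0.028), -0.86 for GAEK01006981.1 (adjusted p = 0.029) and -1.21 for isotig66158 (adjusted p = 0.041). Each of these June calls was lost in 5 to 9 of 25 fits that left out a tree (adjusted p 0.051 to 0.12). At Wiesloch they were lower in June only with the tree as a block (-1.05 to -0.79, adjusted p 0.0026 to 0.015). In July against June at Schluchsee the 3 contigs were called higher. A contig matched to the BAM1 locus, isotig61751, ran with this set: it correlated with GAEK01025828.1 at r = 0.97 and rose in September at Wiesloch by 2.86 (SE 0.34, adjusted p = 2.4e-10).

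GAEK01020616.1 behaved differently again. It was higher at Schluchsee in May, with 3.32, 4.84 and 10.2 CPM at Schluchsee and 1.78, 2.40 and 4.31 CPM at Wiesloch (1.04, SE 0.20, adjusted p = 0.0089), and in September (0.78, SE 0.17, adjusted p = 0.0094). Its May difference had an adjusted p of 0.77 with clock time as a covariate. No contig of the matrix passed in that fit, so it cannot decide on this contig. Recorded May times were 13.22 to 14.37 hours at Schluchsee (6 of 10 libraries) and 14.17 to 15.33 hours at Wiesloch (9 of 10). A last set of 4 contigs, also named after their values were seen (GAEK01035131.1, GAEK01032645.1, isotig32746 and isotig32745, pairwise r = 0.57 to 0.96) passed in none of the comparisons of month, site or provenance. These varied between trees: GAEK01035131.1 had 6.37 to 28.4 CPM in the 3 libraries of Salmon Arm tree 12 at Schluchsee and 0.0575 to 0.114 CPM in the 3 libraries of Salmon Arm tree 14 at the same site. Low values of these contigs lie at the floor of the matrix, where no value is 0 and the most frequent low count is 2, or 4 in 3 libraries.

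With the counts of the 11 contigs summed, BAM3 was still lower at Schluchsee in July (-2.05, adjusted p = 6.1e-07) and September (-1.96, adjusted p = 0.0013). The contigs did not share the July sign: GAEK01025828.1 and isotig66158 were called higher at Schluchsee, opposite to isotig38429. The sum did not pass between September and July at Wiesloch (-0.21, adjusted p = 0.56), where the sets moved in opposite directions.

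**Figure D3:**
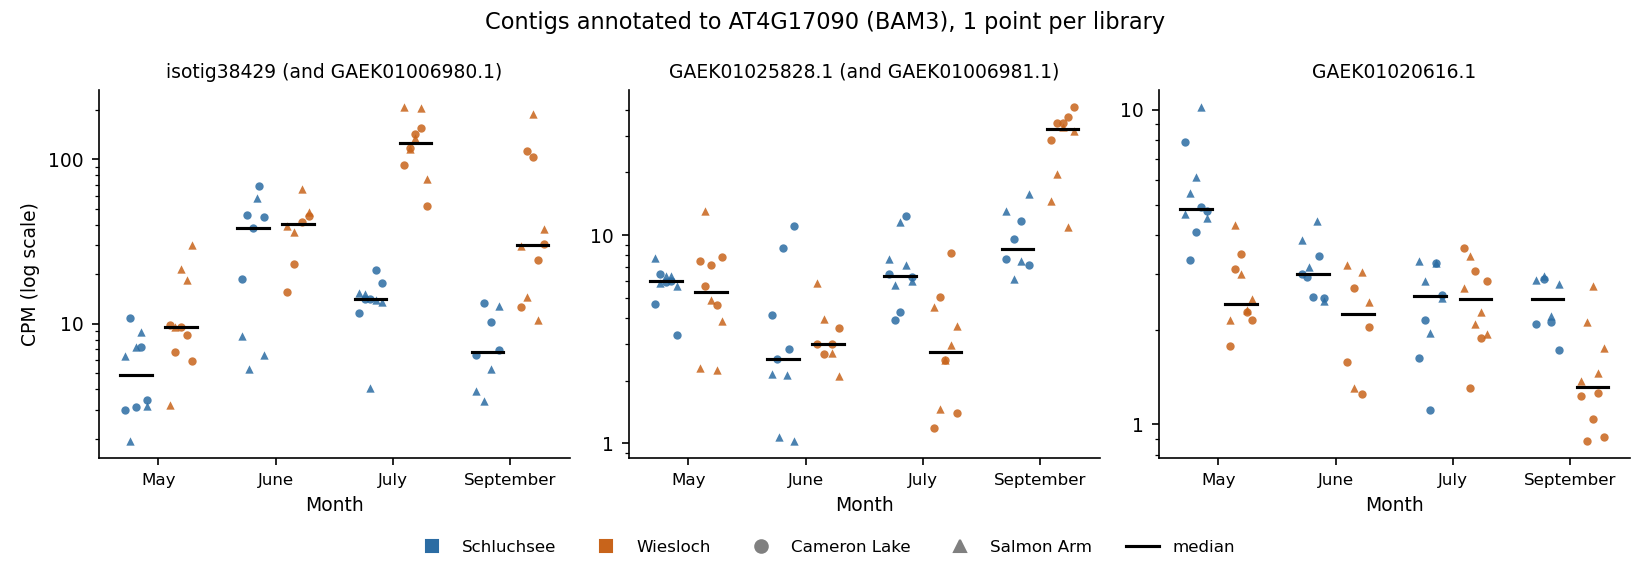
CPM (log axes, a scale per panel) of 3 of the contigs matched to the BAM3 locus by month, 1 point per library, drawn as in the plot of the BAM3 main contig, with a near partner of the contig named in the title where there is one. isotig38429 peaks at Wiesloch in July (median 126 CPM), GAEK01025828.1 at Wiesloch in September (median 32.3 CPM) and GAEK01020616.1 at Schluchsee in May (median 4.84 CPM).

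Among contigs of other loci with a mean of at least 5 CPM (18249 contigs), the 5 whose 16 group means of log2 CPM correlated best with those of the BAM3 main contig were GAEK01008504.1 (AT3G61130, annotated as an alpha-galacturonosyltransferase 1-like protein, r = 0.951), GAEK01028091.1 (AT3G06670, r = 0.943), GAEK01010551.1 (AT1G51350, r = 0.943), isotig39962 (AT5G37360, annotated as an ammonium transporter, r = 0.941) and isotig39578 (AT5G28640, annotated as GRF1-interacting factor 1-like, r = 0.933). Among the main contigs of the other 9 loci, the highest correlation with BAM3 over the group means was r = 0.49, for BAM1, and the lowest r = -0.65, for DPE2.

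The enzymes that phosphorylate starch were, in their main contigs, lowest at Schluchsee in June. SEX1 (AT1G10760), the glucan, water dikinase that attaches the first phosphates to the granule, had 274, 444 and 549.8 CPM at Schluchsee in May, 165, 196 and 307 CPM in June, 195, 269 and 434 CPM in July and 238, 322 and 419 CPM in September. PWD (AT5G26570), the phosphoglucan, water dikinase that acts on chains SEX1 has already phosphorylated, had 351, 452 and 680.4 CPM there in May, 153, 215 and 352 CPM in June, 202, 338 and 509 CPM in July and 294, 406 and 571 CPM in September. In June the Schluchsee values of both overlapped those of May only at the edge, and 9 of 9 trees were lower for each.

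SEX1 fell in June at Schluchsee by 0.89 (-0.89, SE 0.17, adjusted p = 0.00014) and PWD by 0.96 (-0.96, SE 0.18, adjusted p = 1e-04). At Wiesloch the June differences were -0.29 for SEX1 (adjusted p = 0.37) and -0.05 for PWD (adjusted p = 0.92). The course of PWD differed between the sites (month by site, adjusted p = 0.0072; 0.051 with clock time as a covariate), and that of SEX1 did not pass (adjusted p = 0.08; 0.036 with the tree as a block).

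PWD was also lower at Schluchsee than at Wiesloch in summer. It had 202, 338 and 509 CPM at Schluchsee and 303, 526 and 775 CPM at Wiesloch in July, a difference of -0.62 (SE 0.18, adjusted p = 0.0096; 0.078 with clock time). The June difference was -0.64 (SE 0.16, adjusted p = 0.044), but it lost its call in 13 of 17 fits that left out a tree (adjusted p 0.052 to 0.081 in these). It had an adjusted p of 0.53 with clock time, a fit in which few contigs of the matrix passed. The second PWD contig, isotig42747 (7.4% of the counts of the locus, named after its values were seen), had 18.5, 21.5 and 24.3 CPM at Schluchsee and 27.5, 34.1 and 38.0 CPM at Wiesloch in June, without overlap (-0.63, SE 0.08, adjusted p = 0.0013). With the tree as a block, July was higher than June for SEX1 at Wiesloch (0.44, adjusted p = 0.04, and lower again in September, -0.43, adjusted p = 0.024) and for PWD at both sites (Schluchsee 0.52, adjusted p = 0.023; Wiesloch 0.52, adjusted p = 0.012). 4 minor SEX1 contigs were lower at Schluchsee in July (-0.95 to -0.67), where the main contig gave -0.08. They were GAEK01026632.1, isotig40506, isotig32001 and isotig19469, named after their values were seen. GAEK01026632.1, isotig40506 and isotig32001 correlated among themselves at r = 0.77 to 0.91 and with the main contig at r = 0.03 to 0.21. In June at Schluchsee these contigs were not called, and were higher than in May in 4, 6 and 5 of 9 trees.

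SEX4 (AT3G52180), the phosphatase that removes these phosphates, dipped at Wiesloch in July. It had 45.3, 66.0 and 86.7 CPM at Wiesloch in May, 49.1, 59.4 and 69.0 CPM in June, 31.3, 37.1 and 50.7 CPM in July and 43.2, 63.4 and 87.9 CPM in September. At Schluchsee its medians stayed between 46.2 and 54.4 CPM. The July fall at Wiesloch was -0.61 (SE 0.13, adjusted p = 0.00027, lower than in June in 7 of 7 trees) and the September rise 0.68 (SE 0.12, adjusted p = 8.4e-06, higher than in July in 8 of 8 trees). In July SEX4 was higher at Schluchsee, with 38.6, 54.4 and 77.6 CPM against 31.3, 37.1 and 50.7 CPM at Wiesloch (0.55, SE 0.11, adjusted p = 0.00057). All 5 contigs of the locus passed in the same direction in these 3 comparisons. They formed 2 groups by correlation over the 75 libraries, GAEK01011730.1 with GAEK01011729.1 (r = 0.99) and the other 3 (r = 0.98 to 0.99), with r = 0.13 to 0.27 between the groups.

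AMY3 (AT1G69830), a plastid alpha-amylase that cuts inside the chains, went opposite ways at the sites. At Schluchsee it had 73.3, 121 and 138 CPM in May, 79.2, 101 and 133 CPM in June, 50.7, 73.6 and 91.9 CPM in July and 87.1, 109 and 134 CPM in September. At Wiesloch it had 67.3, 85.6 and 102 CPM in May, 66.4, 79.0 and 91.3 CPM in June, 96.2, 123 and 203 CPM in July and 54.7, 87.2 and 119.6 CPM in September. July was thus its lowest month at Schluchsee and its highest at Wiesloch, and the July values of the sites did not overlap.

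In July AMY3 fell at Schluchsee (-0.52, SE 0.13, adjusted p = 0.0028, 6 of 6 trees) and rose at Wiesloch (0.72, SE 0.14, adjusted p = 4.6e-05, 7 of 7 trees). In September it rose at Schluchsee (0.64, SE 0.13, adjusted p = 0.00065, 7 of 7 trees) and fell at Wiesloch (-0.59, SE 0.13, adjusted p = 0.00013, 8 of 8 trees). The month by site test gave the lowest adjusted p of the 10 main contigs, 1.4e-08. In July AMY3 was lower at Schluchsee by 0.88 (-0.88, SE 0.15, adjusted p = 0.00011). Its rise at Wiesloch in July had an adjusted p of 0.086 with clock time as a covariate.

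2 other AMY3 contigs had another course. GAEK01015679.1, with 27.5% of the counts of the locus, had 38.4, 63.4 and 83.9 CPM at Schluchsee in September and 25.9, 37.1 and 54.7 CPM there in July, and at Wiesloch 52.8, 74.0 and 92.2 CPM in September and 34.6, 45.3 and 59.8 CPM in July. It rose in September at both sites (0.71 at Schluchsee, SE 0.14, adjusted p = 0.00026, and 0.73 at Wiesloch, SE 0.13, adjusted p = 8.1e-06), as did isotig43153 (0.89 and 0.65). These contigs correlated with each other at r = 0.82 and with the main contig at r = 0.07 and -0.08. The summed counts of the locus did not differ between September and July at Wiesloch beyond the spread (-0.09, adjusted p = 0.46).

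BAM1 (AT3G23920), a chloroplast beta-amylase that works with AMY3 in stress and in guard cells, changed little in its main contig. It had 409, 574 and 1302 CPM at Schluchsee in June and 363, 416 and 607 CPM in May, and its group medians otherwise lay between 502 and 601 CPM. The June rise at Schluchsee was 0.55 (SE 0.15, adjusted p = 0.0052, 9 of 9 trees higher). The call was lost with the 11 contigs of the locus summed (0.25, adjusted p = 0.18), with clock time (0.47, adjusted p = 0.078) and without Salmon Arm tree 9 at Schluchsee (adjusted p = 0.053). Between September and July at Wiesloch its difference of -0.33 had an adjusted p of 0.052, and of 0.044 with the tree as a block and 0.0075 with clock time. The BAM1 contigs isotig06320 (15.2% of the counts of the locus), isotig06319 (13.7%), isotig06321 (4.9%) and isotig06322 (2.5%) are named after their values were seen. They were also called higher in June at Schluchsee. isotig06319, isotig06321 and isotig06322 were called lower in September at Wiesloch, and lower at Schluchsee than at Wiesloch in July.

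2 BAM1 contigs that correlated at r = 0.99 moved against the main contig in June at Schluchsee. GAEK01005937.1 had 3.75, 24.2 and 55.1 CPM at Schluchsee in June and 46.7, 120.0 and 231 CPM in May, and GAEK01005938.1 had 5.85, 22.0 and 51.9 CPM in June and 55.7, 97.8 and 191 CPM in May. June values lay below those of May for all libraries of GAEK01005938.1 and all but the edge of GAEK01005937.1. The falls were -2.41 (SE 0.39, adjusted p = 5e-06) and -2.32 (SE 0.36, adjusted p = 2.4e-06). At Wiesloch both also fell in June (-1.23, adjusted p = 0.035, and -1.29, adjusted p = 0.016), rose in July (1.05 and 0.98) and fell in September (-0.97 and -0.89). Each of the 6 Wiesloch calls was lost with clock time as a covariate (adjusted p 0.06 to 0.5) and without at least 1 tree (adjusted p 0.05 to 0.22). In May both were higher at Schluchsee (1.28, adjusted p = 0.041, and 1.23, adjusted p = 0.035), a call lost in 14 and 10 of 20 fits that left out a tree. GAEK01035404.1, a minor contig of the locus, was higher at Schluchsee in May (0.89, adjusted p = 0.025), June (0.68, adjusted p = 0.04) and September (0.79, adjusted p = 0.0066). Its June call was lost in 13 of 17 fits that left out a tree (adjusted p 0.051 to 0.076), and those of May and June with clock time. With clock time no contig of the matrix passed between the sites in May and few did in June, so that loss is not particular to this contig.

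ISA3 (AT4G09020), the debranching enzyme that removes short branches, changed in 1 comparison. It had 36.5, 65.0 and 79.3 CPM at Wiesloch in September and 39.2, 43.1 and 54.7 CPM in July, and rose by 0.48 (SE 0.17, adjusted p = 0.017, 6 of 8 trees higher; 0.06 with clock time). GAEK01012610.1, with 42.8% of the counts of the locus and r = 0.98 with the main contig, rose by 0.57 (SE 0.17, adjusted p = 0.0044). With the tree as a block the September difference at Schluchsee also passed (0.42, adjusted p = 0.034; 0.33 and adjusted p = 0.29 without the block).

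**Figure D4:**
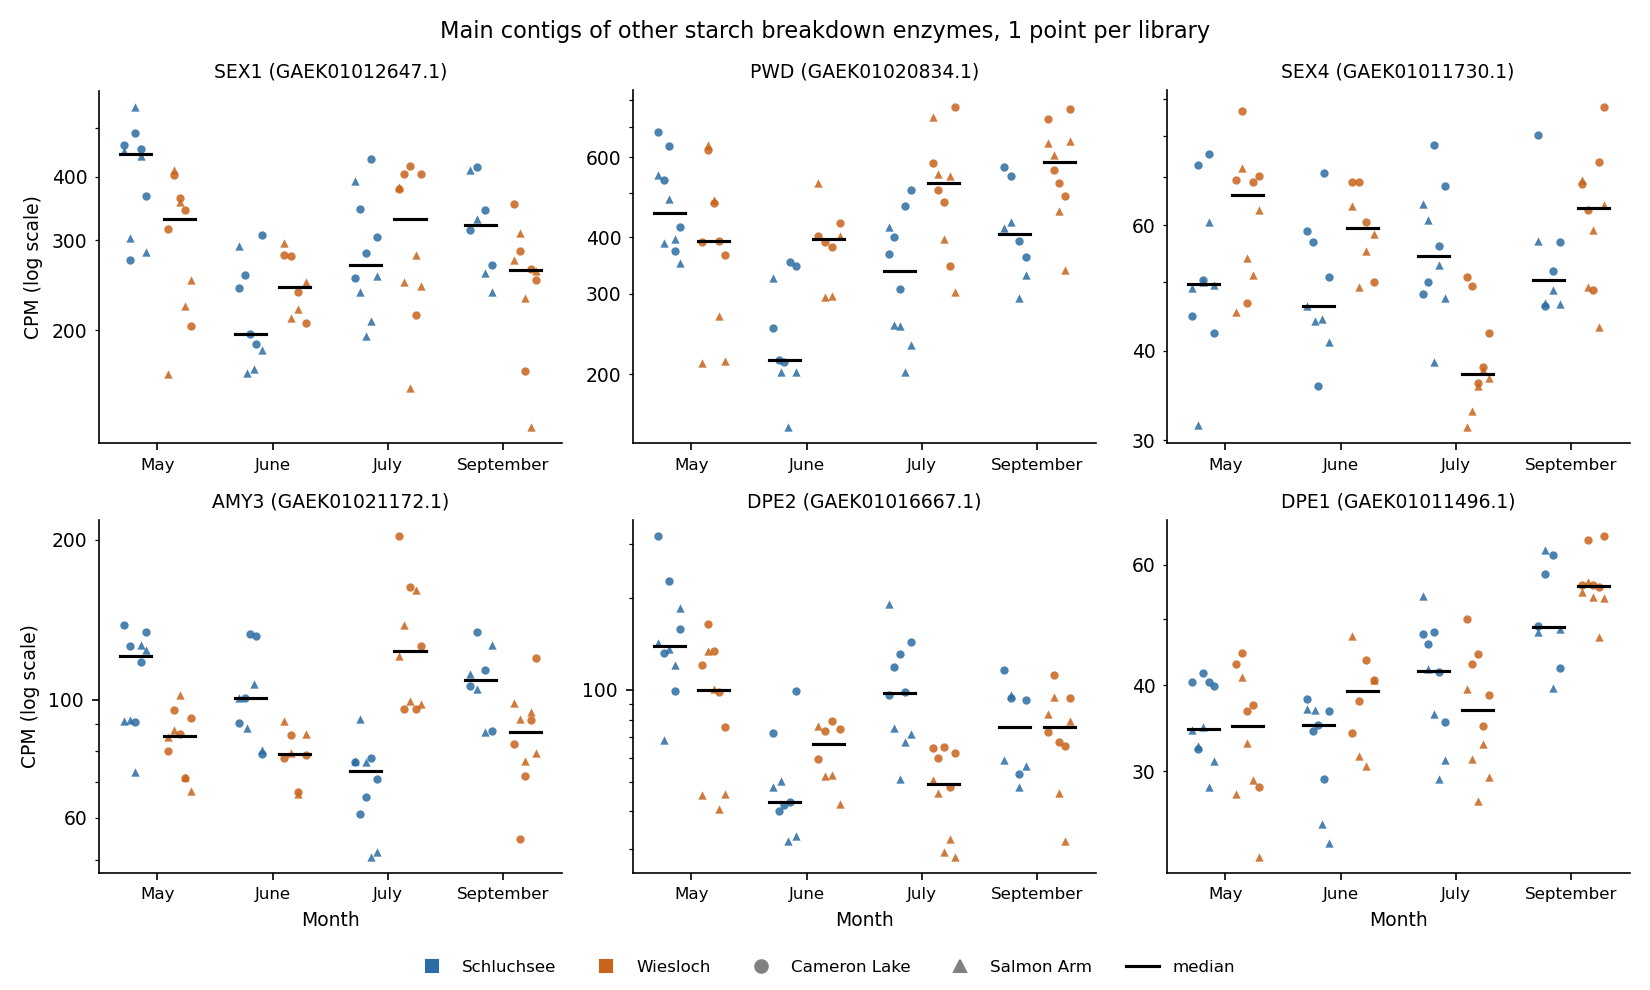
CPM (log axes, a scale per panel) of the main contigs of SEX1, PWD, SEX4, AMY3, DPE2 and DPE1 by month, 1 point per library, with Schluchsee in blue, Wiesloch in orange, circles for Cameron Lake, triangles for Salmon Arm and a bar at the median. AMY3 splits by site in July (50.7 to 91.9 CPM at Schluchsee, 96.2 to 203 CPM at Wiesloch), and SEX1 and PWD are lowest at Schluchsee in June.

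The enzymes that handle the products of starch breakdown differed from each other. DPE2 (AT2G40840), the cytosolic glucanotransferase that uses maltose, had 68.7, 139 and 319 CPM at Schluchsee in May, 31.9, 42.8 and 99.3 CPM in June, 51.0, 97.4 and 191 CPM in July and 48.1, 75.8 and 116 CPM in September. At Wiesloch it had 40.6, 100 and 164 CPM in May, 42.3, 66.5 and 79.4 CPM in June, 28.4, 49.4 and 65.2 CPM in July and 32.0, 75.8 and 112 CPM in September. In June at Schluchsee it fell by 1.67 (-1.67, SE 0.24, adjusted p = 3.6e-07, lower in 9 of 9 trees), while BAM3 rose there in the same 9 trees.

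DPE2 rose again in July at Schluchsee (1.08, SE 0.23, adjusted p = 0.00052, 6 of 6 trees) and was then higher there than at Wiesloch (1.15, SE 0.20, adjusted p = 0.00011), opposite in sign to BAM3. In September it rose at Wiesloch (0.65, SE 0.22, adjusted p = 0.015, 7 of 8 trees), a call lost without Salmon Arm tree 12 (adjusted p = 0.052). Its courses at the sites differed (adjusted p = 0.00071). With the tree as a block, the June difference at Wiesloch also passed (-0.58, adjusted p = 0.024; -0.56 and adjusted p = 0.14 without). GAEK01016666.1, with 48.3% of the counts of the locus and r = 0.99 with the main contig, gave the same calls, for example -1.51 (adjusted p = 2.3e-07) in June at Schluchsee.

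DPE1 (AT5G64860), the plastid glucanotransferase that acts on maltotriose, had a single contig and was highest in September. At Schluchsee it had 28.4, 34.6 and 41.7 CPM in May, 23.6, 35 and 38.2 CPM in June, 29.2, 42.1 and 54.0 CPM in July and 39.7, 48.6 and 63.1 CPM in September. At Wiesloch it had 22.5, 34.8 and 44.6 CPM in May, 30.5, 39.3 and 47.2 CPM in June, 27.1, 36.8 and 50 CPM in July and 47.1, 55.9 and 66.0 CPM in September. September was above July for 6 of 7 trees at Schluchsee and 8 of 8 at Wiesloch.

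The September rise of DPE1 passed at Wiesloch (0.62, SE 0.10, adjusted p = 1.9e-06). At Schluchsee it was 0.32 (SE 0.11, adjusted p = 0.059) and passed with the tree as a block (0.36, adjusted p = 0.014). The July rise at Schluchsee (0.33, SE 0.11, adjusted p = 0.023) was lost without Salmon Arm tree 13 (adjusted p = 0.09) or tree 16 (adjusted p = 0.088) of that site, and with clock time (adjusted p = 0.067).

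MEX1 (AT5G17520), the maltose transporter of the chloroplast envelope, had 2 groups of contigs. The main contig isotig15318 (29.8% of the counts of the locus) had 10.7, 23.3 and 31.9 CPM at Schluchsee and 21.8, 37.5 and 105 CPM at Wiesloch in July, a difference of -0.98 (SE 0.23, adjusted p = 0.0017). At Wiesloch it fell in September to 5.00, 28.5 and 50.1 CPM (-0.73, SE 0.29, adjusted p = 0.035, 7 of 8 trees lower). That fall lost its call in 7 of 25 fits that left out a tree (adjusted p 0.054 to 0.11) and with clock time (adjusted p = 0.097).

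GAEK01013399.1 (25.6% of the counts), isotig20941 and isotig20940 had the opposite sign in September at Wiesloch. isotig20941 had 18.5, 28.4 and 31.9 CPM in September and 11.8, 16.4 and 23.2 CPM in July (0.70, SE 0.14, adjusted p = 7e-05), isotig20940 rose by 0.63 (SE 0.12, adjusted p = 3e-05) and GAEK01013399.1 by 0.30 (SE 0.12, adjusted p = 0.04). The last of these was lost in 8 of 25 fits that left out a tree (adjusted p 0.052 to 0.11) and without the 3 libraries with a lowest value of 4 (adjusted p = 0.077). The summed counts of the locus gave 0.11 (adjusted p = 0.54) in this step and -0.14 (adjusted p = 0.44) between the sites in July. In that July comparison isotig20941 and isotig20940 were called higher at Schluchsee, opposite to the main contig. At Schluchsee GAEK01013399.1, isotig20941 and isotig20940 fell in June (-0.54 to -0.44) and rose in July (0.54 to 0.67), as DPE2 did. The June calls of isotig20941 and isotig20940 were lost without Salmon Arm tree 16 at Schluchsee (adjusted p 0.062 and 0.075). With the tree as a block the main contig was lower in July than in June at Schluchsee (-0.90, adjusted p = 0.0072; -0.79 and adjusted p = 0.053 without), and its course differed between the sites (adjusted p = 0.0084; 0.13 without).

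**Figure D5:**
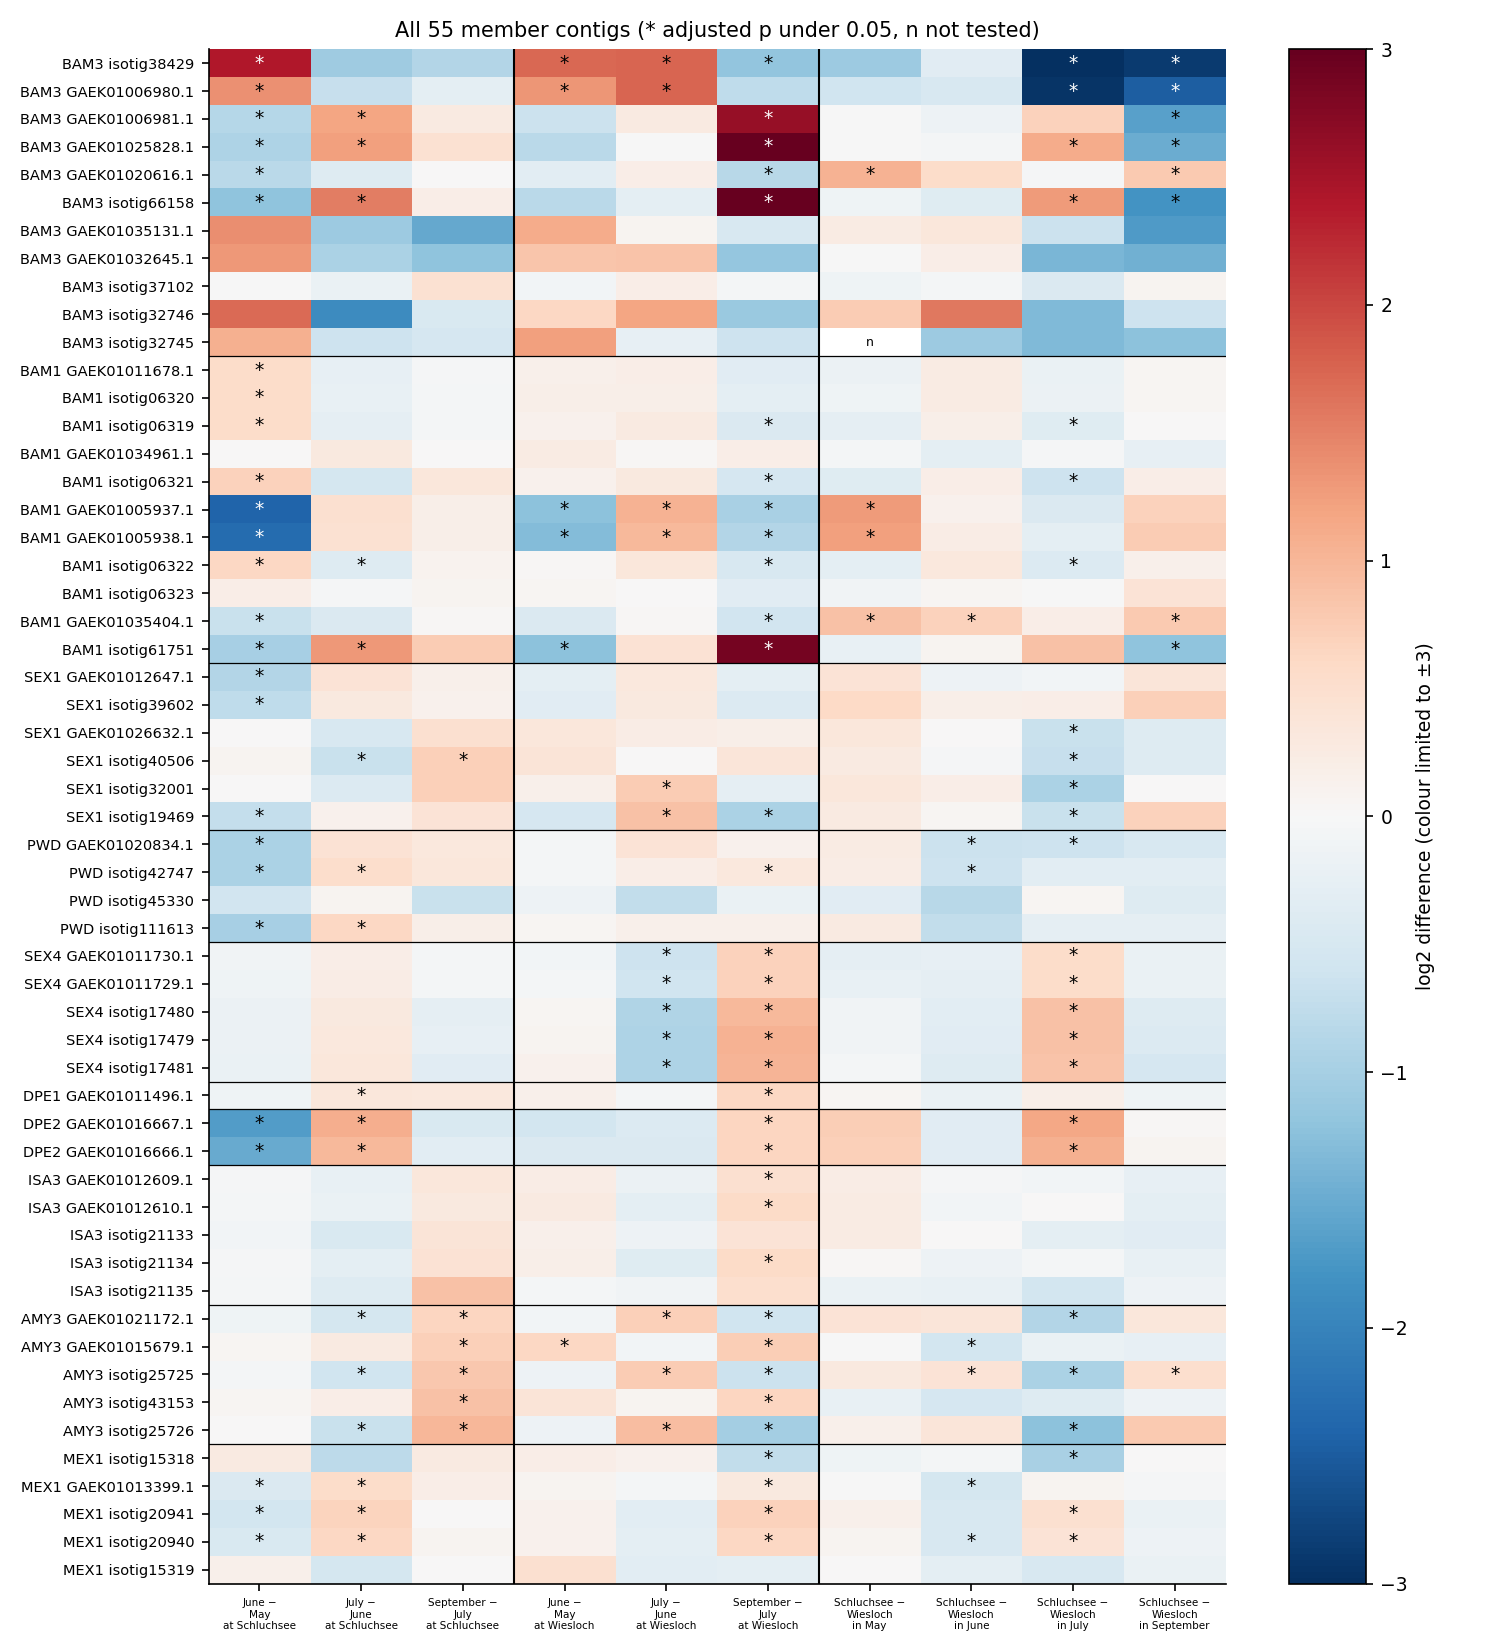
Log2 differences of all 55 contigs (rows, grouped by locus and sorted by mean count) in the same columns and colours as the plot of main contigs, with n for the 1 contig not tested in May. The calls of SEX4 and DPE2 contigs share a sign within each column, whereas contigs of BAM3, BAM1, AMY3 and MEX1 carry opposite calls between September and July at Wiesloch.

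Of the 55 contigs, 26 passed between June and May at Schluchsee (7 higher, 19 lower), against 14.1% of all contigs. There, 17 passed between July and June (12 higher, 5 lower), against 17.0%, and 6 between September and July (6 higher), against 7.67%. At Wiesloch 6 passed between June and May (3 higher, 3 lower), against 7.77%, 14 between July and June (9 higher, 5 lower), against 25.1%, and 34 between September and July (21 higher, 13 lower), against 42.0%. The month by site test called 31 of 55, against 34.9%. Between the sites, 4 of 54 tested passed in May, against 2.97%, and 7 of 55 in June, against 3.14%. For July it was 25 (11 higher and 14 lower at Schluchsee), against 41.8%, and for September 9, against 8.29%. Contigs of a locus are not independent of each other.

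Of 19 further genes of starch breakdown, 17 were measured, all but BAM5 and BAM7. The month by site test called 8 of these 17 main contigs (BAM4, BAM9, AMY2, PHS2, GLT1, ESV1, LESV and GWD2), against 34.9% of all contigs. The call of GWD2 was lost in 17 of 25 fits that left out a tree (adjusted p 0.05 to 0.12). Those of AMY2, GLT1 and PHS2 were lost in 1 fit each (adjusted p 0.059 to 0.078). BAM9, which in Arabidopsis lacks catalytic activity, had 63.3, 88.0 and 99.5 CPM at Schluchsee and 94.6, 149.8 and 198 CPM at Wiesloch in September (-0.90, SE 0.13, adjusted p = 0.00046). In July it was instead higher at Schluchsee (0.6, SE 0.2, adjusted p = 0.022), a call lost in 1 fit that left out a tree (adjusted p = 0.053). It rose at Wiesloch in September (1.67, SE 0.17, adjusted p = 1.1e-12) above every July library, whose lowest, median and highest values were 19.4, 51.5 and 77.9 CPM. LESV, a protein that binds starch and helps to shape the granule, rose there as well (1.20, SE 0.16, adjusted p = 2.7e-09), with 23.6, 38.4 and 69.5 CPM in September and 11.6, 15.2 and 22.7 CPM in July. In that step 6 of the 17 genes were higher (BAM9, LESV, GLT1, PHS1, LDA and BAM4) and 2 lower (AMY2 and LSF1), against 20.2% higher and 21.7% lower over all contigs, so their total of 8 was near the background of 42.0%. The calls of LSF1 and AMY2 were lost in 13 and 6 of 25 fits that left out a tree (adjusted p 0.05 to 0.14), and those of LDA and PHS1 in 1 fit each (adjusted p 0.05 and 0.058). Between the sites in July 6 of the 17 passed, against 41.8% of all contigs. BAM4, BAM9 and LESV were higher at Schluchsee, and AMY1, AMY2 and LSF1 were lower.

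ESV1, a relative of LESV that protects starch from degradation, was lower at Schluchsee in May, with 3.81, 5.23 and 6.88 CPM there and 8.27, 13.0 and 18.0 CPM at Wiesloch, without overlap (-1.24, SE 0.16, adjusted p = 0.00049). It rose at Schluchsee in June (1.77, SE 0.22, adjusted p = 8.1e-09). PHS2, the cytosolic glucan phosphorylase, had the opposite course there: it fell in June (-1.53, SE 0.29, adjusted p = 0.00011) and was higher at Schluchsee than at Wiesloch in May (1.20, SE 0.26, adjusted p = 0.018). GWD2, a dikinase related to SEX1, also fell in June at Schluchsee (-1.0, SE 0.22, adjusted p = 0.00064), as did LESV (-0.91) and GLT1 (-0.46), whereas LSF1 rose (0.36). LSF1 rose in June at Wiesloch as well (0.49, SE 0.11, adjusted p = 0.0019). LDA was also higher there (0.56, adjusted p = 0.041, lost in 11 of 25 fits that left out a tree), and BAM4 was lower (-0.33, adjusted p = 0.0092). The June fall of GLT1 at Schluchsee was lost in 2 of 25 fits that left out a tree (adjusted p 0.09 and 0.12). In July against June at Schluchsee GLT1 (0.38) and LESV (0.75) were higher, and AMY1 (-0.82) and ESV1 (-0.64) were lower. The July calls of GLT1, ESV1 and AMY1 were lost in 16, 5 and 1 of 25 such fits (adjusted p 0.052 to 0.46). LDA also rose in September at Schluchsee (0.67, SE 0.18, adjusted p = 0.01), a call lost in 1 fit (adjusted p = 0.067). BAM2, BAM6, BAM8, LSF2 and HXK1 passed in none of these comparisons.

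Between the provenances, over the 25 trees, 1 of 10 main contigs passed, DPE1 (higher in Cameron Lake trees). Of all contigs 10.7% passed, 4.62% higher and 6.11% lower in Cameron Lake trees. An unadjusted p under 0.05 was given by 7 of the 10, and by 16415 of the 59186 contigs tested. DESeq2 called 3 (DPE1, DPE2 and MEX1, each higher), where 17.1% of all contigs passed, and leaving out a tree at a time gave 0 to 4 with edgeR. The medians of the log2 differences were 0.25 over the 10 main contigs and 0.01 over all contigs. CPM per tree pool the 1 to 4 libraries of a tree, which are not always of the same months. DPE1 had 37.2, 43.4 and 50.2 CPM in the 12 Cameron Lake trees and 27.2, 36.7 and 56.6 CPM in the 13 Salmon Arm trees, which overlap (0.25, SE 0.07, adjusted p = 0.04). The call was lost in 16 of 25 fits that left out a tree and without the 3 libraries with a lowest value of 4 (adjusted p = 0.052). BAM3 gave 0.27 (SE 0.30, adjusted p = 0.58).

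2 of the other 45 contigs passed as well, and they are named after their values were seen. The MEX1 contig isotig15319 was higher in Cameron Lake trees (8.91, 13.5 and 18.6 CPM against 4.31, 7.92 and 20.5 CPM in Salmon Arm trees; 0.67, SE 0.21, adjusted p = 0.042). The ISA3 contig isotig21135 was lower in them (0.0823, 0.215 and 2.94 CPM against 0.222, 3.70 and 5.33 CPM in Salmon Arm trees; -2.07, SE 0.65, adjusted p = 0.045). Its low values lie at the floor of the matrix (lowest count 2), so the size of this difference is uncertain. Fits that left out a tree are not given for these 2 contigs. Among the 17 further genes, BAM9 (0.35, adjusted p = 0.014) and LDA (0.47, adjusted p = 0.013), a debranching enzyme, were higher in Cameron Lake trees.

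Libraries of the same tree were also compared across months. Deviations from the group mean of log2 CPM in libraries of the same tree correlated over 89 pairs at a median of r = 0.43 over the 55 contigs, from -0.17 for the MEX1 contig isotig20940 to 0.79 for the PWD contig isotig45330. Among main contigs the value was 0.58 for AMY3, 0.52 for ISA3, 0.43 for BAM3 and 0.22 for SEX1. Pairs of different trees of the same provenance and site gave -0.17 to 0.03 (437 pairs). Deviations from a group mean cancel within the group, which pushes these values to the opposite sign of the same-tree values. They are therefore no independent baseline. Pairs share trees and sites, so these are descriptions only.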

How the data were processed

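RNA was extracted from needles and sequenced from libraries made with the TruSeq RNA kit, per the labels' protocols. The deposited matrix holds the authors' whole-number read counts per contig for 75 libraries. Per the submitters' processing notes, the tools were CASAVA 1.7, Bowtie2 2.1 and HTSeq (no version), with the build TAIR10. Gene Ontology cells contain unescaped tabs, so 29654 lines have more cells than the header's 80 (at most 145). The last 75 cells of each line were therefore read as the deposited counts. Counted from the left, 65 of these columns meet text cells and were recorded as another unit.

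The test was that of edgeR 4.0.16 under R 4.3.3 (low contigs dropped by filterByExpr, TMM factors 0.897 to 1.11, quasi-likelihood F test, prior df 2.92), adjusted by Benjamini-Hochberg across the contigs of each fit (59177 for months, 55572 to 56859 for sites within a month, 59186 for provenance). Month comparisons used all 75 libraries. Site comparisons used those of 1 month. The provenance comparison used counts summed per tree (25 trees). Its model also held the site and the share of each tree's counts that came from June, July and September. Groups came from the labels. CPM are descriptive, and correlations used log2(CPM + 0.5). Totals of 18.54 to 47.51 M counts per library limit the precision of low contigs.

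Samples of the same number, provenance and site come from the same tree, per the labels. Over 28752 contigs, deviations of same-tree libraries from their group means correlated at a median of r = 0.66 (0.02 to 0.87, 89 pairs), against -0.11 for libraries of different trees (437 pairs). Taking deviations from group means lowers the value for different trees, so it is no independent baseline. No pair of libraries was identical.

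Each locus is described by its main contig. Another contig is named where it passed in the direction opposite to the main contig or holds over 25% of the counts of the locus, and contigs outside this rule are marked in the text. Members and lists were chosen with earlier results of these data known. The alternatives were DESeq2 1.42.0, RLE scaling, no filter, lowest values set to 0, counts summed per locus, the tree as a block, clock time as a covariate and each tree left out. Added after seeing the data were a covariate for plastid-encoded transcripts and leaving out the 3 libraries whose most frequent low value is 4. The scripts were tested on simulated data.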

Additional observations from a re-analysis of the deposited data

Results flagged for a closer look

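In 11 of 160 groups of 4 or 5 libraries checked for the 10 main contigs, 1 library lay far from the others by Dixon's criterion, which chance alone gives in about 1 in 20 groups. For BAM3 these were Salmon Arm tree 12 at Schluchsee in July (4.07 CPM, the others 13.5 to 15.3 CPM), Salmon Arm tree 13 at Schluchsee in June (58.4 CPM, the others 5.28 to 8.41 CPM) and Salmon Arm tree 13 at Wiesloch in September (189 CPM, the others 10.5 to 37.8 CPM). BAM1 had 508 CPM in Salmon Arm tree 14 at Schluchsee in May (the others 363 to 389 CPM). SEX1 had 214 CPM in Cameron Lake tree 15 at Wiesloch in July (the others 379 to 421 CPM) and 292 CPM in Salmon Arm tree 12 at Schluchsee in June (the others 165 to 183 CPM).

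Salmon Arm tree 9 at Schluchsee stood apart in July for PWD (422 CPM, the others 202 to 257 CPM) and DPE2 (191 CPM, the others 51.0 to 75.3 CPM). Cameron Lake tree 15 at Wiesloch stood apart in June for ISA3 (88.9 CPM, the others 44.7 to 47.5 CPM) and MEX1 (63.4 CPM, the others 40.8 to 43.3 CPM). DPE1 had 32.3 CPM in Cameron Lake tree 9 at Schluchsee in May (the others 39.9 to 41.7 CPM).

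Seasonal courses differed between the sites, by edgeR's month by site test, for the main contigs of AMY3 (adjusted p = 1.4e-08), BAM3 (0.00021), SEX4 (0.00026), DPE2 (0.00071) and PWD (0.0072). Among the other named contigs, those of the BAM3 locus were GAEK01025828.1 (adjusted p = 2.3e-05), GAEK01006981.1 (3.9e-05), isotig66158 (0.00021) and GAEK01020616.1 (0.0056). Those of the BAM1 locus were isotig61751 (adjusted p = 0.0029), GAEK01005937.1 (0.024) and GAEK01005938.1 (0.034). DPE2 had GAEK01016666.1 (adjusted p = 0.00037), and MEX1 had isotig20940 (0.00051), isotig20941 (0.00088) and GAEK01013399.1 (0.022; 0.069 with the tree as a block).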

How the results depend on the processing

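Counts of main contigs called, of 10, moved under these settings. With clock time (62 libraries), June against May at Wiesloch gave 0 (1 in the text), July against June at Wiesloch 1 (3), the sites in June 0 (1) and in September 2 (1). With the tree as a replicate block, the same Wiesloch steps gave 2 and 5, July against June at Schluchsee 5 (3), September against July 4 (1) at Schluchsee and 9 (7) at Wiesloch, and month by site 7 (5). Beside the blocked values given with the results above, the block changed no other call of a main contig. DESeq2 gave 5 for July against June at Schluchsee, 2 for September against July there, 2 for the sites in May (0), 2 in June, 2 in September and 3 for provenance (1). RLE scaling, no filter and leaving out the 3 libraries with a lowest value of 4 each gave 2 for September against July at Schluchsee, and that last setting gave 0 for provenance. Summed per locus, September against July at Wiesloch gave 4 (7) and the sites in September 2, and 2 directions reversed in that Wiesloch step: MEX1 (0.11, adjusted p = 0.54) and ESV1 (0.40, adjusted p = 0.048). The cause was not tested. The plastid covariate gave 0 for the sites in June.

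Leaving out 1 tree at a time gave, for June against May, July against June and September against July, 1 to 1, 3 to 4 and 6 to 8 at Wiesloch and 4 to 5, 2 to 5 and 1 to 2 at Schluchsee. It gave 5 to 6 for month by site and 0 to 0 for month by provenance. The sites gave 0 to 1 in May, 0 to 1 in June, 6 to 6 in July and 1 to 2 in September, and provenance 0 to 4.

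Over all contigs, calls for June against May at Wiesloch (4598) were 703 with clock time, 10178 with the block and 2783 to 5458 with a tree left out. Calls for July against June at Wiesloch (14862) were 4538 with clock time. Calls at Schluchsee were 15900 with the block and 4806 with clock time for June against May (8315), and 7810 with the block and 2480 without the 3 libraries for September against July (4541). Month by site (20678) gave 13325 with clock time. Month by provenance (2) gave 0 with clock time or the plastid covariate, 8 with DESeq2, 1 without the 3 libraries or with lowest values set to 0, and 0 to 3 with a tree left out. The sites in May (1668) gave 4334 with DESeq2, 0 with clock time and 923 to 2031 with a tree left out. The sites in June (1774) gave 5482 with DESeq2, 31 with clock time, 590 with the plastid covariate and 834 to 2479 with a tree left out. The sites in September (4605) gave 7575 with DESeq2, 1947 with the plastid covariate and 2880 without the 3 libraries. Provenance (6348) gave 10144 with DESeq2 and 3949 to 9074 with a tree left out. Sums per locus test fewer rows and gave 2899, 8868 and 15294 at Wiesloch in month order, 5064, 5984 and 2699 at Schluchsee, 12884 for month by site, 1 for month by provenance, 960, 1167, 14080 and 2735 for the sites in month order, and 3377 for provenance. The clock time fit was not run for provenance, where trees are summed.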
